A study of Rattus norvegicus with 48 samples.

Results

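The livers of rats that had received the high dose of thioacetamide (TAA) for 14 d were compared with the livers of rats that had received the low dose for the same time. The contrast held 6 of the 48 libraries of the study, 3 of high dose rats (rats 7, 8 and 9) and 3 of low dose rats (rats 40, 41 and 42), and all 6 were chosen by their labels alone. The rats were male Sprague-Dawley (SD) rats given TAA once a day, at 45 mg/kg (high dose) or 4.5 mg/kg (low dose). Small RNA of liver tissue was sequenced 24 hours after the last dose, 1 library per rat. Rats at 15 mg/kg (middle dose) and time-matched controls given the vehicle alone, 3 of each at 14 d, were used as reference levels, and the high and low dose rats of 3, 7 and 28 d were used to place the 14-d difference in time. The rats' age is not given in the sources used here, and no label names a batch. Each group was a separate set of rats, and a liver section of each rat was used. The test covered 301 of the 664 detected miRNAs, those that reached 5 RPM (reads of the miRNA per 1e06 miRNA reads of the library) in 3 or more of the 48 libraries.

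TAA is a hepatotoxin that liver cells convert to reactive S-oxides, and it is widely used to produce liver injury, fibrosis and tumours in rats. A miRNA is a short RNA cut from a hairpin precursor by Drosha and Dicer. One arm of the hairpin, named 5p or 3p, is usually loaded into an Argonaute protein, and bases 2 to 8 of the loaded strand, the seed, pair with target mRNAs and lower their translation and stability. In liver, miR-122 is the most characteristic miRNA of hepatocytes, miR-192 and miR-194 are also rich in hepatocytes and gut epithelium, and miR-34a is a transcriptional target of p53.

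The sequences of the miRNAs on which the comparison turned are shown with the seed in capitals, as given in RefSeq for build GRCr8. Of the 301 tested miRNAs, 270 were found there by name, with 214 different seeds. The miRNAs that were lower at high dose are given with relatives that share their seed, because several of them were counted in one seed family.
miR-34a-5p: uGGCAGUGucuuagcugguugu
miR-449a-5p: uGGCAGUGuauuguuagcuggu
miR-34c-5p: aGGCAGUGuaguuagcugauugc
miR-190b-5p: uGAUAUGUuugauauuagguu
miR-190a-5p: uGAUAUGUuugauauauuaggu
miR-7a-5p: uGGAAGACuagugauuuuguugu
miR-6329: aAUGUGACucagcuaucugaaca
miR-466b-5p: uAUGUGUGuguguauguccaug
miR-466c-5p: uGUGAUGUguguauguacaug
let-7a-5p: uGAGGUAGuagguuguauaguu
let-7c-5p: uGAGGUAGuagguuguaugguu
let-7f-5p: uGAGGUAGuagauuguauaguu
miR-98-5p: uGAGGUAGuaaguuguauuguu
miR-122-5p: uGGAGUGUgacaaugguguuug
miR-192-5p: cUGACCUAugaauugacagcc

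The sequences of miRNAs that were higher at high dose show 2 pairs with a common seed, miR-19a-3p with miR-19b-3p and miR-450a-5p with miR-450b-5p.
miR-19a-3p: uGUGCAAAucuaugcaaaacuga
miR-19b-3p: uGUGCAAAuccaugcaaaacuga
miR-450a-5p: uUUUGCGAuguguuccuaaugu
miR-450b-5p: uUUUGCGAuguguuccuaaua
miR-322-5p: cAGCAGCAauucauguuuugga
miR-434-3p: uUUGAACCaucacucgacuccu
miR-136-3p: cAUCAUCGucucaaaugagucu
miR-128-3p: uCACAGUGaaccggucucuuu
miR-484: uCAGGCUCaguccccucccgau

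At 14 d the high dose livers held far less miR-34a-5p, miR-190b-5p, miR-7a-5p and miR-6329 and also less let-7a-5p, let-7c-5p and miR-98-5p than the low dose livers, and they held more miR-19a-3p, miR-19b-3p, miR-429, miR-434-3p and miR-136-5p. For most of these miRNAs the high dose rats were near the controls and the low dose rats stood apart. Differentially expressed miRNAs (DEMs) were miRNAs that passed both a raw p of 0.05 and a 1.5-fold difference in edgeR's quasi-likelihood F-test after upper quartile scaling, and the Benjamini-Hochberg (BH) adjusted p of that test is printed with each miRNA. Of the 301 miRNAs, 83 were DEMs (27.6%), 21 higher at high dose (6.98%) and 62 lower (20.6%), and 72 of them had an adjusted p below 0.05 (23.9%). The values of the 3 high and 3 low dose rats did not overlap for 134 of the 301 miRNAs (44.5%) and for 79 of the 83 DEMs. The split between higher and lower depended on the scaling. Upper quartile scaling placed the median of all 301 log2 fold changes at -0.14, and TMM, DESeq2's size factors and library size alone moved this median up by 0.20, 0.19 and 0.37. The number of DEMs was then 33 higher and 34 lower with TMM, 29 and 35 with DESeq2's size factors and 50 and 19 with library size alone, so the higher DEMs made up 25.3%, 49.3%, 45.3% and 72.5% of the DEMs in the 4 scalings. A total of 40 miRNAs were DEMs under all 4 scalings (13.3%), 21 higher and 19 lower, and the 43 others were all lower with upper quartile scaling. The 3 other scalings moved the log2 fold changes up, and 0 of the 21 higher DEMs were lost. To hold under all 4 scalings is thus little added support for a higher DEM. No miRNA was a DEM in opposite directions in any pair of these scalings. Under library size alone the 43 had log2 fold changes between -0.63 and -0.23.

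**Figure D1:**
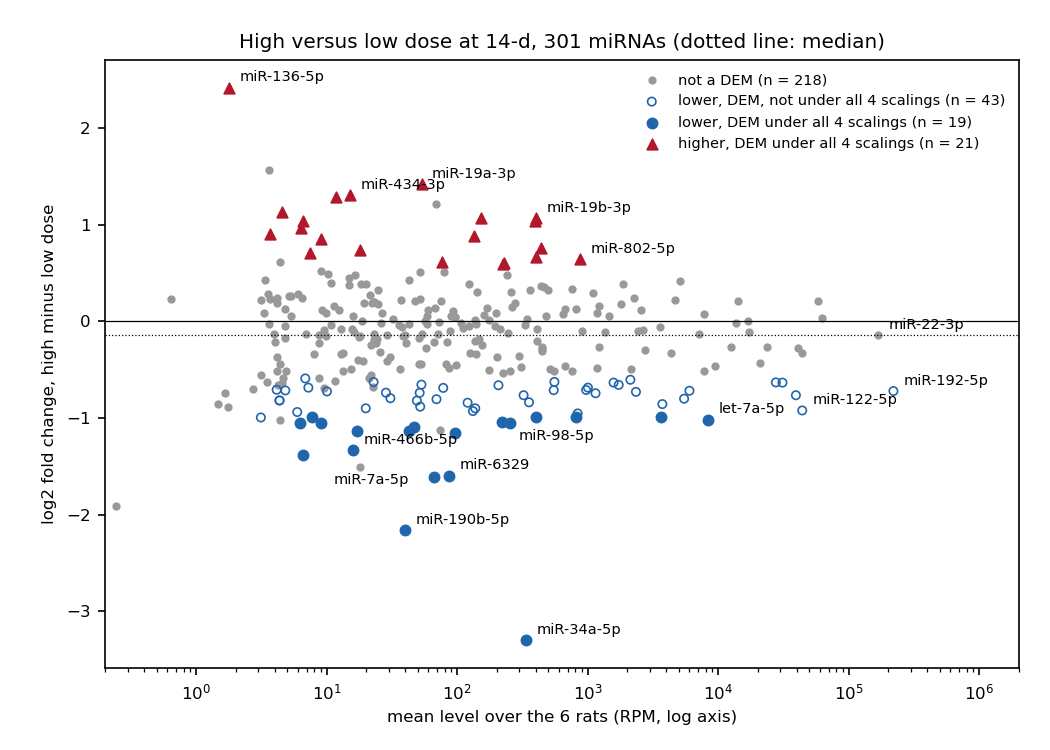
Log2 fold change of high minus low dose with upper quartile scaling against the mean level over the 6 rats in RPM on a log axis, 1 point per tested miRNA. Filled circles and triangles are the 19 lower and 21 higher DEMs found under all 4 scalings, open circles the 43 other lower DEMs, grey points the rest, and the dotted line is the median of all 301 at -0.14, and miR-34a-5p lies lowest at -3.30.

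**Figure D2:**
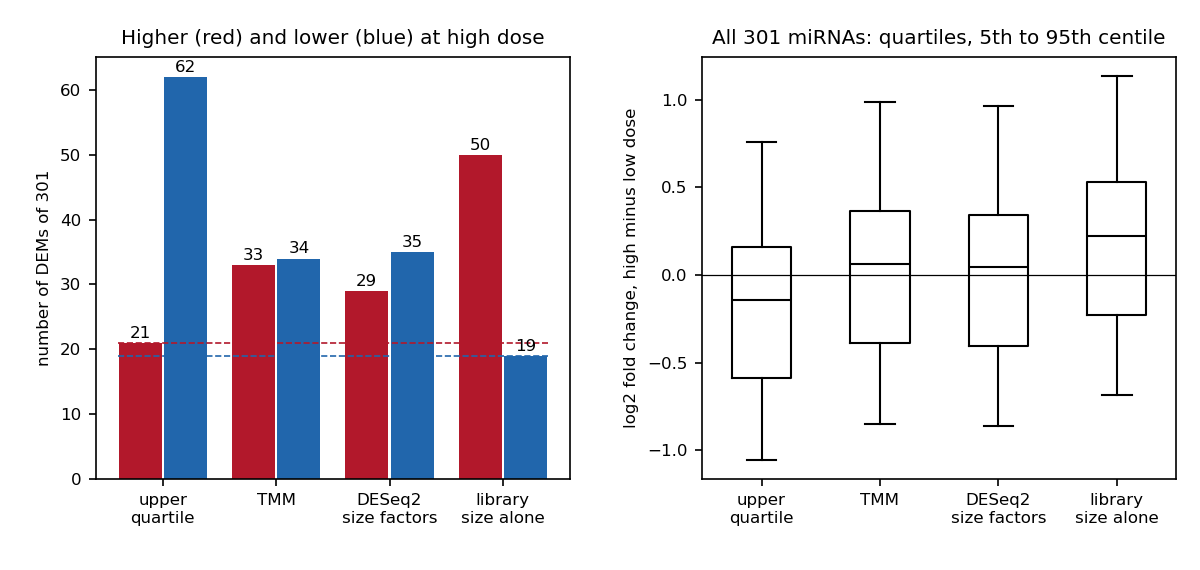
Left, number of DEMs of 301 that were higher (red) or lower (blue) at high dose under each of 4 scalings, with dashed lines at the 21 higher and 19 lower DEMs found under all 4. Right, log2 fold changes of all 301 miRNAs under each scaling, with the box at the quartiles, the line at the median and whiskers from the 5th to the 95th centile, and the median moves from -0.14 to 0.22.

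Among the 40 miRNAs, the 19 lower ones had adjusted p-values below 0.05 in every case and stayed DEMs when any 1 of the 6 libraries was left out. Of the 21 higher ones, 18 had an adjusted p below 0.05 and 10 stayed DEMs in all 6 such fits. These fits and adjusted p-values used upper quartile scaling, with log2 fold changes of -0.99 or beyond for the lower ones and 0.59 or more for the higher. Through the choice of the 40, the lower ones were thus further past the fold threshold. The directions can therefore not be compared by these counts. The groups did not overlap for 18 of the 19 lower and 20 of the 21 higher miRNAs, with miR-132-3p and miR-136-3p as the exceptions. The 3 high dose libraries held 8581584, 4829217 and 10825082 counts (rats 7, 8 and 9) and the 3 low dose libraries 8595556, 9712968 and 9957863 counts (rats 40, 41 and 42). The floor set for detection, 3 counts, was 0.350, 0.621 and 0.277 RPM in rats 7, 8 and 9 and between 0.301 and 0.349 RPM in the low dose rats, which covers counting error only. Pearson's r of log2 counts between rats of a group was between 0.9854 and 0.9891 at high dose and between 0.9903 and 0.9916 at low dose, and no pair of rats of a group agreed within sampling noise (chi-square per degree of freedom 101 to 515). In whole liver, fewer cells of a type and less of a miRNA per cell cannot be told apart.

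The difference was largest for miR-34a-5p (chr5:165815971-165815992, + strand, GRCr8, within the span of the non-coding locus LOC103692514), which acts on cell cycle and survival genes downstream of p53. Its level, in upper quartile normalized RPM, was 541, 501 and 1046 in the low dose rats and 38.2, 102 and 73.1 in the high dose rats. Every low dose rat was thus above every high dose rat, and the high dose mean was 9.82-fold lower (log2 fold change -3.30, SE 0.40, adjusted p = 0.000813). The controls held 22.2, 30.04 and 28.2 normalized RPM and the middle dose rats 477, 549 and 333. The low and middle dose groups were therefore both far above the controls, and the highest dose was the nearest to them. Every high dose rat was still above every control. The study reports from qPCR that this miRNA was also significantly raised over controls at the high dose at this time point. Set against the 14-d controls, miR-34a-5p had log2 fold changes of 4.70 at low dose (adjusted p = 9.46e-07), 4.08 at middle dose (adjusted p = 3.48e-07) and 1.402 at high dose (adjusted p = 0.0785), in edgeR fits that share the controls. The opposite arm, miR-34a-3p, was below the filter and was not tested. It had 10, 14 and 15 reads in the low dose rats, 1, 2 and 3 reads in the high dose rats, 0, 2 and 2 in the controls and 23, 35 and 9 at middle dose. The ratio of its RPM at low over high dose was 5.57, with an exact 95% interval of 2.34 to 16.1 for counting error only. Of the other miRNAs with the seed GGCAGUG, miR-34c-5p was not a DEM (log2 fold change -0.45) and miR-449a-5p, chosen after its values were seen, was a DEM only with upper quartile scaling (log2 fold change -0.71, SE 0.31, adjusted p = 0.117, groups overlapping).

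The miR-7 and miR-190 families, small families of widely expressed miRNAs, had 3 lower DEMs among 5 tested members and 0 higher (median log2 fold change -0.69, against -0.14 for all 301). Such counts, here and for the lists that follow, stand beside 20.6% lower and 6.98% higher DEMs over all 301 miRNAs. miR-190b-5p (chr2:177812471-177812491, outside annotated genes) was at 51.1, 74.9 and 86.4 normalized RPM in the low dose rats and at 15.3, 13.6 and 18.6 in the high dose rats (log2 fold change -2.16, SE 0.24, adjusted p = 0.000813). The controls lay at 17.7, 8.32 and 15.9, 2 of them within the high dose range and 1 below it. miR-7a-5p, a miRNA best known from neurons and endocrine cells, was at 101, 90.8 and 133 at low dose and at 34.1, 35.9 and 35.9 at high dose (log2 fold change -1.61, SE 0.19, adjusted p = 0.000813). The 3 high dose values of miR-7a-5p lay within a narrow band just above the controls (28.02, 27.3 and 24.8), and the middle dose rats were spread from 42.2 to 104. miR-190a-5p, which has the seed of miR-190b-5p, was a DEM with upper quartile scaling (log2 fold change -0.69, SE 0.25, adjusted p = 0.0679) and not under the 3 others. miR-6329, a rat miRNA annotated within the span of Rdx and chosen here after its values were seen, was at 73.3, 165 and 179 in the low dose rats and at 41.9, 52.3 and 44.2 in the high dose rats (log2 fold change -1.60, SE 0.31, adjusted p = 0.00534).

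**Figure D3:**
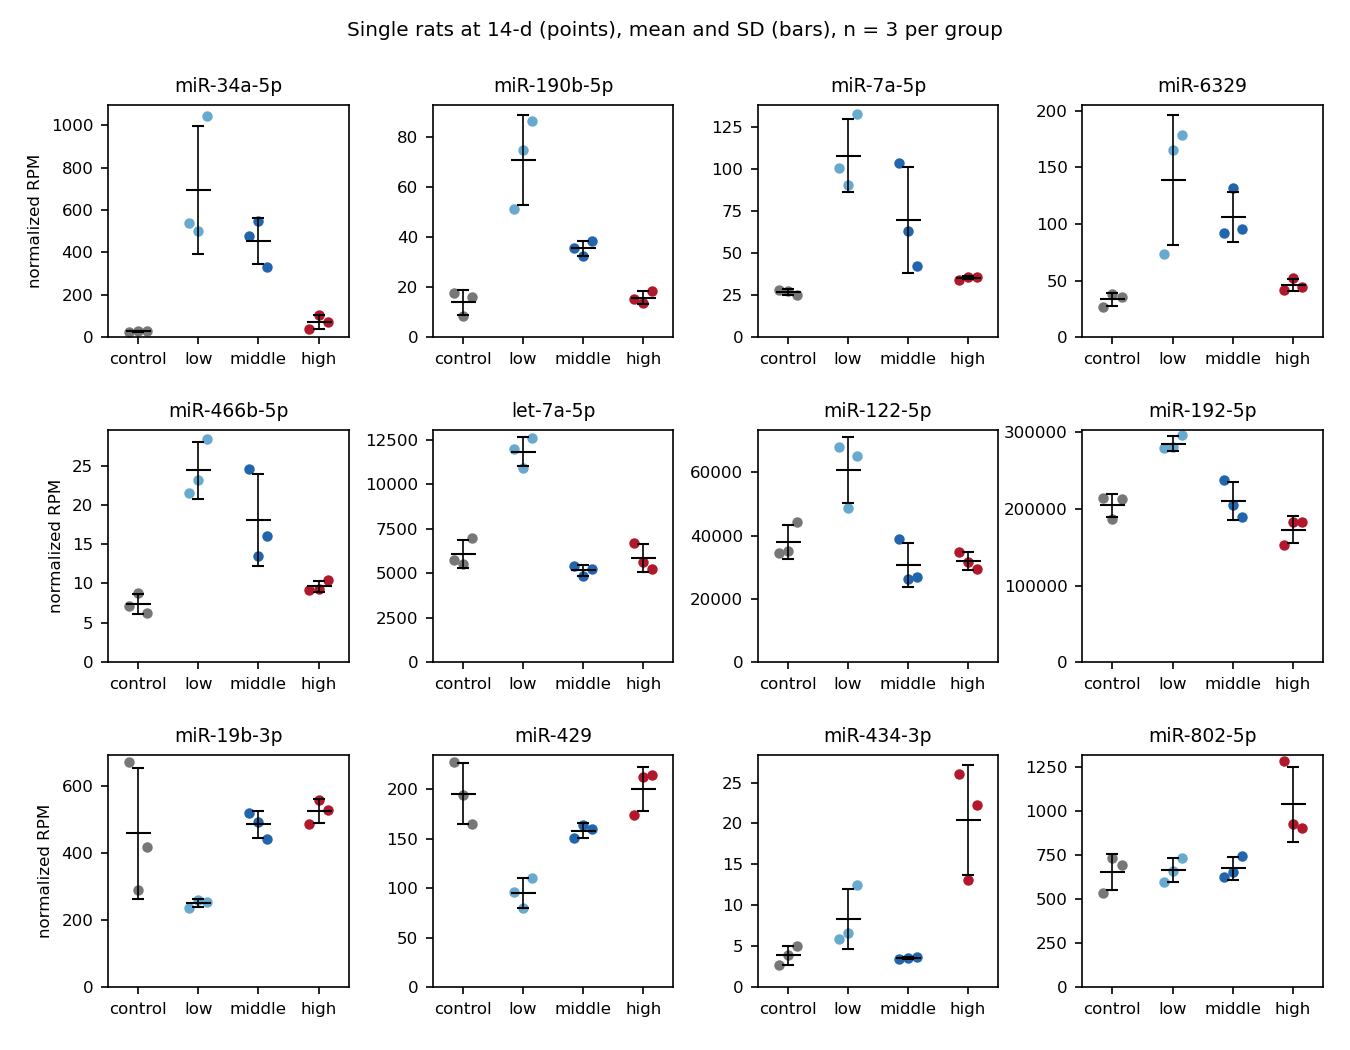
Normalized RPM of 12 miRNAs in single rats at 14 d (points) with the mean and SD of each group (bars, n = 3), for controls and the low, middle and high dose, with axes that start at 0. The low dose mean is the highest of the 4 for the miRNAs from miR-34a-5p to miR-192-5p and the lowest for miR-19b-3p and miR-429, and miR-434-3p and miR-802-5p are highest at high dose.

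The miR-466 family is encoded in a long rodent tandem array within the span of Sfmbt2 and its members carry runs of UG or CA repeats. Of 6 tested members 4 were lower DEMs and 0 higher (median log2 fold change -0.85), and miR-466b-5p and miR-466c-5p were DEMs under all 4 scalings. miR-466b-5p was at 21.5, 23.2 and 28.4 normalized RPM at low dose and 9.19, 9.25 and 10.5 at high dose (log2 fold change -1.34, SE 0.19, adjusted p = 0.00149). miR-466c-5p was at 126, 136 and 156 at low dose and 61.7, 58.5 and 67.3 at high dose (log2 fold change -1.16, SE 0.16, adjusted p = 0.00138). The other DEMs, miR-466b-2-3p and miR-466b-4-3p, had identical counts in every library, so they are 1 measurement listed under 2 names, and their fold change under library size alone was -0.46 on the log2 scale. Members of this array are near-identical in sequence, and how their reads were divided among precursors is uncertain.

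The let-7 family restrains growth and developmental timing genes such as Lin28, Hmga2 and Ras, and miR-98 shares its seed. Among 19 tested let-7 and miR-98 arms, 8 were lower DEMs and 0 higher (median log2 fold change -0.43). Of the 9 miRNAs with the seed GAGGUAG, 7 were lower DEMs (median -0.74), whereas the 1 DEM among the 10 tested 3p arms was let-7b-3p (log2 fold change -0.65). Of these 3p arms, let-7a-1-3p and let-7c-2-3p have the same sequence and nearly the same counts. The pair is thus 1 measurement under 2 names. let-7a-5p was at 11962, 10935 and 12579 normalized RPM in the low dose rats and 6698, 5630.3 and 5224 in the high dose rats (log2 fold change -1.02, SE 0.12, adjusted p = 0.000813). let-7c-5p was at 5419, 4647 and 5236 at low and 2858, 2632 and 2204 at high dose (log2 fold change -0.99, SE 0.13, adjusted p = 0.00119). miR-98-5p was at 351, 360.2 and 375 at low dose and 167, 173 and 183 at high dose (log2 fold change -1.05, SE 0.13, adjusted p = 0.000813). The high dose rats were within the range of the controls or below it for let-7a-5p and miR-98-5p and all below it for let-7c-5p, and the middle dose rats were lower still for miR-98-5p (153, 122 and 144). let-7f-5p, the member with the highest mean level, had a log2 fold change of -0.43 and was not a DEM, and let-7 members that differ by single bases can share reads. The 5 other DEMs of the list, let-7b-5p, let-7b-3p, let-7d-5p, let-7g-5p and let-7i-5p, had log2 fold changes between -0.95 and -0.63 with upper quartile scaling and between -0.58 and -0.27 with library size alone.

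miR-122-5p and miR-192-5p, the leading hepatocyte miRNAs, were lower at high than at low dose. Of 11 tested arms of hepatocyte miRNAs, 5 were lower DEMs and 0 higher (median log2 fold change -0.51). This list also held arms of miR-101a, miR-101b and miR-148a, and miR-101a-3p and miR-148a-5p were among its DEMs. Only miR-194-3p held under all 4 scalings (log2 fold change -1.13, SE 0.18, adjusted p = 0.00203), and it is the minor arm of its hairpin. The abundant arm miR-194-5p, chosen after its value was seen, was no DEM (log2 fold change -0.13). The abundant miR-148a-3p was also no DEM (0.038). miR-122-5p was at 68021, 48718 and 65163 normalized RPM in the low dose rats and 34902, 31791 and 29363 in the high dose rats (log2 fold change -0.92, SE 0.14, adjusted p = 0.00187), a DEM also with TMM and DESeq2's size factors and short of the fold threshold with library size alone (log2 fold change -0.55). miR-192-5p, the miRNA with the highest mean level over the 6 rats, was at 279035, 280604 and 296067 at low dose and 153367, 183251 and 182728 at high dose (log2 fold change -0.72, SE 0.10, adjusted p = 0.00149), and was a DEM with upper quartile scaling alone, although its adjusted p stayed between 0.00149 and 0.0122 in the 4 scalings. Neither miRNA had overlapping groups. The controls of miR-122-5p were at 34489, 35195 and 44302 normalized RPM. Against them, in edgeR with upper quartile scaling, miR-122-5p was a higher DEM at low dose (log2 fold change 0.67, adjusted p = 0.00372). At high dose it was no DEM (log2 fold change -0.25, adjusted p = 0.277). The study reports that miR-122 was not differentially expressed at any dose or time, unlike the low dose result here. As summed shares of the library, the hepatocyte marker arms (miR-122, miR-192 and miR-194) held 298918 to 312815 RPM in the low dose rats, 227699 to 244939 RPM in the high dose rats and 233252 to 246685 RPM in the controls. None of the 6 hepatocyte marker arms was at 0 in any of the 6 libraries. This is no check of the tissue label, because all 6 arms had passed the filter on reads.

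The other miRNAs that were lower under all 4 scalings belong to several families. miR-146b-5p, induced by NF-kB in many cells, was at 493, 621 and 569 normalized RPM at low dose and 293, 282 and 273 at high dose (log2 fold change -0.99, SE 0.14, adjusted p = 0.00138), while its relative miR-146a-5p, with the same seed and chosen after its value was seen, had a log2 fold change of 0.29 and was not a DEM. Both arms of miR-3559, annotated within Zdhhc15, were lower to a like extent (log2 fold change -1.097 and -1.04). miR-132-3p, induced by CREB, was at 4.44, 13.2 and 12.96 at low dose and 4.95, 3.02 and 3.63 at high dose (log2 fold change -1.38, SE 0.40, adjusted p = 0.0307), and low dose rat 40 lay within the high dose range. miR-378b was at 1386, 1114 and 888 at low dose and 624, 493 and 593 at high dose (log2 fold change -0.99, SE 0.18, adjusted p = 0.00403). The last of these miRNAs, chosen after their values were seen except miR-193a-5p, were miR-185-5p, miR-193a-5p, miR-598-3p and miR-674-5p, with log2 fold changes between -1.13 and -0.99.

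Among the DEMs that did not hold under all 4 scalings were 4 of 7 tested arms of the miR-181 family, which tunes lymphocyte and stress signalling (median log2 fold change -0.66). They were miR-181a-5p, miR-181a-1-3p, miR-181b-5p and miR-181c-5p, with log2 fold changes between -0.80 and -0.66. Of 11 tested arms of the miR-30 family 4 were lower, against 20.6% of all 301, and none of the 4 held under all 4 scalings. The median of the list, -0.19, was close to the -0.14 of all 301. They were miR-30a-5p, miR-30b-3p, miR-30c-2-3p and miR-30e-3p, between -0.79 and -0.63. The median of the miR-30 list was 0.17 under library size alone. miR-21-5p, one of the most abundant injury-responsive miRNAs of liver, was at 48386, 51482 and 55492 normalized RPM at low dose and 20329, 35076 and 36094 at high dose (log2 fold change -0.76, SE 0.20, adjusted p = 0.0181), with a log2 fold change of -0.41 under library size alone. High dose rat 7 had the lowest value of the 6, and the groups did not overlap. Of 7 tested arms of miR-103, miR-107, miR-33 and miR-378, which act in lipid and energy metabolism, 4 were lower DEMs (median -0.63), namely miR-103-3p, miR-378a-3p, miR-378a-5p and miR-378b, and miR-378b was the 1 that held under all 4 scalings. The 5 tested arms of the miR-29 family, which targets collagens, held 0 DEMs (median 0.05), and miR-29a-3p was at 1685, 1493 and 1868 at low and 2078, 1859 and 1769 at high dose, both below the controls at 3123, 3035 and 3263. miR-455-3p did not differ beyond the spread of the rats, with 46.7, 45.9 and 79.1 at low and 54.96, 49.5 and 52.5 at high dose (log2 fold change -0.13, 95% interval -0.64 to 0.39), and its log2 fold change was above 0 under the 3 other scalings.

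**Figure D4:**
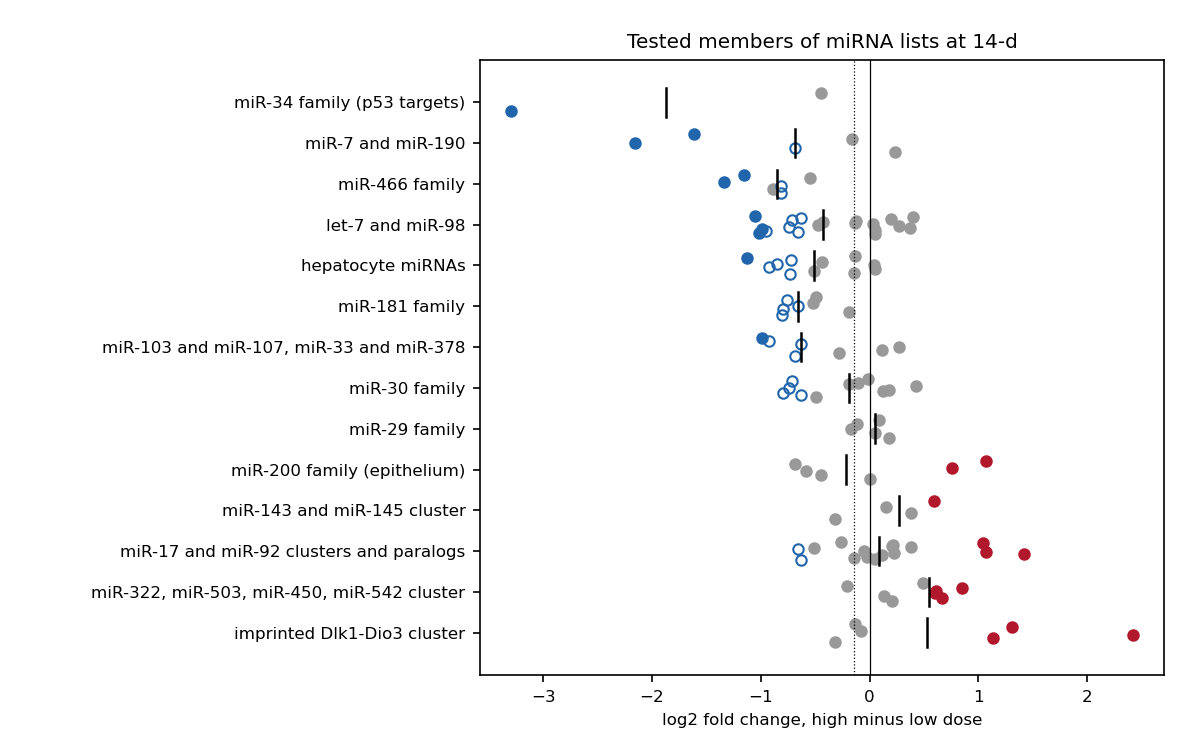
Log2 fold change of high minus low dose with upper quartile scaling for the tested members of miRNA lists. Grey points are no DEMs, filled blue and red points DEMs under all 4 scalings, open points other DEMs, black bars the list medians, and the dotted line the median of all 301 at -0.14, and the miR-466, miR-181 and miR-7 points lie mostly left of it and those of the miR-322 cluster mostly right.

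The miRNAs that were higher at high dose included both tested miRNAs with the miR-19 seed. miR-19 belongs to the growth-promoting miR-17 to miR-92 cluster. miR-19b-3p was at 236, 261 and 255 normalized RPM in the low dose rats and 487, 559 and 529.6 in the high dose rats, 2.09-fold higher (log2 fold change 1.07, SE 0.13, adjusted p = 0.000813). miR-19a-3p was at 20.6, 31.8 and 30.8 at low dose and 63.3, 79.1 and 80.2 at high dose (log2 fold change 1.42, SE 0.21, adjusted p = 0.00177). The high dose rats were far apart from the low dose rats for both and close to the middle dose rats (521, 493 and 444 for miR-19b-3p), and the controls were spread from 288 to 672 for miR-19b-3p. The neighbours of miR-19 in the cluster had log2 fold changes of -0.025 for miR-17-5p and -0.051 for miR-20a-5p, both chosen after their values were seen. Over the whole list of miR-17 to miR-92 clusters and their paralogs, 3 of 16 tested arms were higher and 2 lower (median log2 fold change 0.08). The third higher arm was miR-93-3p, at 2.36, 4.36 and 5.59 at low dose and 7.58, 8.69 and 9.28 at high dose (log2 fold change 1.04, SE 0.31, adjusted p = 0.0316), whereas miR-25-3p and miR-106b-3p of the same cluster in Mcm7 were lower DEMs with upper quartile scaling (log2 fold change -0.66 and -0.63).

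The cluster of miR-322, miR-503, miR-450 and miR-542 on chromosome X, in which miR-322 shares its seed with the cell cycle regulators miR-15 and miR-16, had 4 higher DEMs of 8 tested arms and 0 lower (median log2 fold change 0.55). All 4 held under the 4 scalings, as did all 21 higher DEMs. miR-322-5p was at 258, 316 and 348 normalized RPM at low dose and 409, 523 and 529 at high dose (log2 fold change 0.67, SE 0.16, adjusted p = 0.0159). miR-450a-5p was at 157, 184 and 198 at low dose and 223, 292 and 303 at high dose. miR-450b-5p was at 49.4, 62.5 and 65.3 at low dose and 75.3, 92.9 and 103 at high dose. No value of 1 group reached the other group for any of these 3 miRNAs. These differences were just above the fold threshold, and each of these calls was lost without low dose rat 40 (log2 fold change 0.56 for miR-322-5p, 0.51 for miR-450a-5p and 0.50 for miR-450b-5p). miR-450a-5p was also lost without high dose rat 8 or 9 and miR-450b-5p without rat 9. miR-503-3p was at 6.11, 4.36 and 8.44 at low dose and 14.95, 10.4 and 8.69 at high dose (log2 fold change 0.85, adjusted p = 0.0676). Its call was lost without low dose rat 41 or high dose rat 7 (log2 fold change 0.64 and 0.59). Both values were still past the fold threshold, with a raw p of 0.0776 and 0.0851 in edgeR.

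Of the miR-200 family, which keeps epithelial cells epithelial by repressing Zeb1 and Zeb2, 2 of 6 tested arms were higher and 0 lower (median log2 fold change -0.22, and 0.14 under library size alone). miR-429 was at 95.8, 79.95 and 111 normalized RPM at low and 174, 212 and 214 at high dose (log2 fold change 1.07, SE 0.17, adjusted p = 0.0024). miR-200b-3p was at 318, 216 and 422 at low dose and 508, 676 and 436 at high dose (log2 fold change 0.76, SE 0.25, adjusted p = 0.0467). The miR-200b-3p values of the groups nearly touched, and its call was lost without low dose rat 41 or high dose rat 8 (log2 fold change 0.55 and 0.57). miR-200a-3p, from the same cluster and chosen after its value was seen, had a log2 fold change of -0.45 and was not a DEM.

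The imprinted Dlk1-Dio3 region carries one of the largest miRNA clusters of mammals, expressed from the maternal chromosome and mostly silent in adult liver. Of 82 of its miRNAs with a read, 6 passed the filter, 3 of them higher DEMs and 0 lower, beside 6.98% higher and 20.6% lower over all 301. The filter left out most of the cluster, so this count describes the 6 alone. Of the 3 DEMs, miR-434-3p, miR-136-3p and miR-136-5p reached 5 RPM in 27, 17 and 5 of the 42 libraries other than the high dose ones of 14 and 28 d, and miR-136-5p was below 5 RPM in all 6 libraries compared here. miR-434-3p was at 5.83, 6.59 and 12.5 normalized RPM at low dose and 26.1, 13.03 and 22.3 at high dose (log2 fold change 1.31, SE 0.34, adjusted p = 0.0188). All 3 high dose rats were above every control (2.64, 3.96 and 5.003) and every middle dose rat (3.43, 3.61 and 3.70), though high dose rat 8 was only just above low dose rat 42. miR-136-5p was at 0.417, 0.670 and 0.476 at low dose, close to the limit of detection, and at 2.73, 2.08 and 3.63 at high dose (log2 fold change 2.42, SE 0.41, adjusted p = 0.00294). miR-136-3p was at 1.81, 3.13 and 3.33 at low dose and 7.07, 2.64 and 8.02 at high dose, with high dose rat 8 within the low dose range (log2 fold change 1.13, adjusted p = 0.0689). Its call was lost without low dose rat 40 or high dose rat 9 (log2 fold change 0.92 and 0.86). Both values were still past the fold threshold, with a raw p of 0.0564 and 0.0879 in edgeR. miR-127-3p, also within the span of Rtl1 and chosen after its value was seen, had a log2 fold change of -0.32 and was not a DEM. The members below the filter were not compared at this depth.

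miR-802-5p, a miRNA linked to glucose metabolism in liver, was at 600.1, 661 and 734 normalized RPM at low dose and 1283, 929 and 905 at high dose (log2 fold change 0.64, SE 0.16, adjusted p = 0.0173). Here the low dose rats were level with the controls (536, 731 and 691) and the high dose rats stood apart, unlike most other DEMs, though the call was lost without low dose rat 40 or high dose rat 7 (log2 fold change 0.58 and 0.46). miR-335 was at 218, 294 and 232 at low dose and 462, 672 and 398 at high dose (log2 fold change 1.04, SE 0.21, adjusted p = 0.00661). miR-128-3p was at 80.5, 81.7 and 112 at low dose and 172, 171 and 163 at high dose (log2 fold change 0.88, SE 0.17, adjusted p = 0.00584). Both were at low dose below the controls, at 468, 377 and 352 and 143, 157 and 192. miR-145-5p, a smooth muscle miRNA, was at 159, 171 and 194 at low dose and 318, 244 and 227 at high dose (log2 fold change 0.59, SE 0.17, adjusted p = 0.0303), and its call was lost without low dose rat 40 or 41 or high dose rat 7 (log2 fold change 0.53, 0.58 and 0.43). miR-511-5p, annotated within the span of the macrophage receptor gene Mrc1, was at 3.06, 4.69 and 4.64 at low dose and 8.89, 7.93 and 7.51 at high dose (log2 fold change 0.97, SE 0.25, adjusted p = 0.0179). miR-201-5p was at 4.03, 6.03 and 9.63 at low dose and 19.8, 10.95 and 17.05 at high dose (log2 fold change 1.28, SE 0.33, adjusted p = 0.0184). The remaining higher miRNAs, chosen after their values were seen, were miR-484, miR-501-3p and miR-702-3p, with log2 fold changes of 0.74, 0.71 and 0.90. The adjusted p of miR-501-3p was 0.12 and its call held in 1 of the 6 fits that left out a library. The calls of miR-484 and miR-702-3p were lost without low dose rat 41 (log2 fold change 0.57 for miR-484 and 0.73 for miR-702-3p, the latter still past the fold threshold with a raw p of 0.0598).

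The ratio of the 5p to the 3p arm of a hairpin within a library does not depend on any scaling, and it was examined after the data had been seen. Of 81 hairpins with both arms tested, 28 differed between the doses with an adjusted p below 0.05 in limma (34.6%), 15 with a lower and 13 with a higher ratio at high dose, and 41 had groups that did not overlap. Leaving out 1 library gave 22 to 29. The ratio fell most clearly for miR-98, from a mean of 5.299 to 3.85 on the log2 scale (difference -1.45, SE 0.14, adjusted p = 0.000295). It was lower also for let-7d (difference -1.12, SE 0.15, adjusted p = 0.0025), miR-122 (difference -0.96, SE 0.14, adjusted p = 0.0025) and miR-148a (difference -0.90, SE 0.15, adjusted p = 0.00367). In miR-122 and miR-98 the abundant 5p arm was lower and the 3p arm was no DEM (miR-122-3p, log2 fold change 0.053, miR-98-3p, 0.40). In miR-148a it was the minor 5p arm that was lower (-0.86), with the abundant 3p arm near 0 (0.038). The ratio rose for miR-194 (difference 1.00, SE 0.18, adjusted p = 0.00526) and miR-30e (difference 0.69, SE 0.13, adjusted p = 0.00633), whose 3p arms were lower.

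The position of the other 14-d groups was described over all members. The control mean was nearer, on a log scale, to the high than to the low dose mean for 214 of the 301 tested miRNAs (71.1%), for 57 of the 62 lower DEMs (91.9%), for 19 of the 19 lower DEMs that held under all 4 scalings and for 17 of the 21 higher DEMs (81%). The 4 higher DEMs whose controls were nearer to the low dose were miR-802-5p, miR-434-3p, miR-136-3p and miR-136-5p. The middle dose mean was nearer to the high dose for 61 of the 83 DEMs (73.5%), against 195 of 301 (64.8%). For the DEMs that held under all 4 scalings the share was below that of all miRNAs, 23 of 40 (57.5%), with 10 of the 19 lower (52.6%) and 13 of the 21 higher ones (61.9%). Against the same 3 controls, the low dose gave 98 DEMs (32.6%), 69 higher and 29 lower, of which 91 had an adjusted p below 0.05. The middle dose gave 52 (17.3%), 40 of them so adjusted, and the high dose 28 (9.3%), 5 of them so adjusted. With upper quartile scaling the number of DEMs at 14 d was thus lowest at the highest dose, and the difference between these numbers was not tested. These 3 counts share their controls and each uses its own 6 libraries. Over the 14-d libraries the upper quartile factors were 0.838 to 0.922 at low dose, 0.919 to 1.006 in the controls and 1.095 to 1.153 at high dose. Counts against the controls under other scalings are not given here.

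High and low dose were compared in the same way at the other time points, in other rats. The 3-d rats gave 53 DEMs (17.6%), the 7-d rats 56 (18.6%) and the 28-d rats 36 (12%), of which 0, 4 and 6 had an adjusted p below 0.05, and 67, 72 and 63 miRNAs had an unadjusted p below 0.05 at any fold change. At 3 d 36 of all DEMs were higher and 17 lower. At 7 d these were 44 and 12, and at 28 d 30 and 6. Of the 40 miRNAs, 8 were DEMs in the same direction at 3 d and 2 in the opposite one, 9 and 3 at 7 d, and 7 and 1 at 28 d. Lower ones among the same-direction calls were miR-193a-5p and miR-378b at 3 d and let-7a-5p, let-7c-5p and miR-378b at 7 d. At 28 d all same-direction calls were higher ones. The 19 lower miRNAs had median log2 fold changes of -0.29, 0.04 and -0.10 at 3, 7 and 28 d. Those of the 21 higher ones were 0.32, 0.49 and 0.31. Called in the opposite direction were miR-132-3p, higher at 3 and 7 d (log2 fold change 1.49 and 1.31), miR-200b-3p, lower at 3 d (-0.86), miR-466b-5p and miR-6329, higher at 7 d (0.62 and 1.16), and miR-501-3p, lower at 28 d (-1.498). Of these calls, those of miR-132-3p and miR-6329 at 7 d had an adjusted p below 0.05 in edgeR (0.0387 for both). miR-484 was a higher DEM at every time point, with log2 fold changes of 1.15, 1.21 and 0.76 at 3, 7 and 28 d. miR-128-3p, miR-19a-3p and miR-93-3p were higher also at 3 and 7 d, with log2 fold changes of 1.36 and 1.199 for miR-128-3p and 1.73 and 1.74 for miR-19a-3p, and miR-378b was lower. let-7a-5p and let-7c-5p were lower also at 7 d (log2 fold change -0.79 and -0.75). At 28 d the 3 Dlk1-Dio3 miRNAs that were DEMs at 14 d were again higher, with log2 fold changes of 4.004 for miR-434-3p, 3.48 for miR-136-5p and 2.75 for miR-136-3p, and adjusted p-values of 0.00123, 0.00543 and 0.0147. At 3 d their log2 fold changes were -1.07, -1.23 and -1.21, and they were no DEMs. miR-136-5p passed the filter through 3-d libraries alone, 3 of the low, 1 of the middle and 1 of the high dose, and did not reach 5 RPM in any high dose library of 28 d. miR-34a-5p, miR-190b-5p and miR-7a-5p were DEMs between high and low dose at no other time point, which by itself is no test of a change with time.

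**Figure D5:**
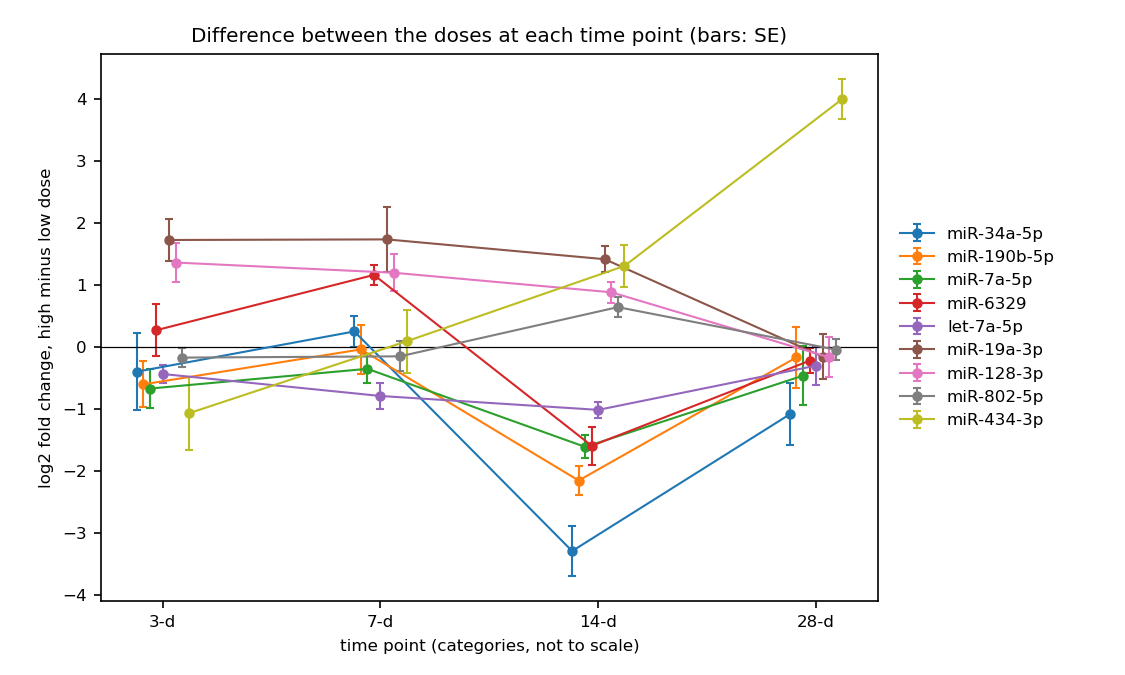
Log2 fold change of high minus low dose (upper quartile scaling, 3 against 3 rats at each time point, bars SE) for single miRNAs at 3, 7, 14 and 28 d, with time points as categories not drawn to scale. miR-34a-5p is at -3.30 at 14 d and between -1.09 and 0.25 at the others, and miR-434-3p reaches 4.004 at 28 d.

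Whether the high minus low difference at 14 d differed from that at another time point was tested in a single edgeR fit of the 24 high and low dose libraries. With upper quartile scaling 1 miRNA passed an adjusted p of 0.05 against 3 d (0.332%), 7 against 7 d (2.33%) and 8 against 28 d (2.66%). The difference of miR-34a-5p between 14 and 7 d was -3.54 on the log2 scale (adjusted p = 0.0229 with upper quartile scaling, 0.0474 with DESeq2's size factors, 0.0593 with TMM and 0.0801 with library size alone). Against 3 and 28 d it was -2.89 and -2.21 with upper quartile scaling (adjusted p = 0.0595 and 0.0945 in the same fit). These contrasts passed under no scaling. miR-6329 against 7 d, at -2.76, was the 1 contrast with an adjusted p below 0.05 under all 4 scalings (0.00399, 0.00848, 0.00546 and 0.02499 with upper quartile, TMM, DESeq2's size factors and library size alone). With TMM and with library size alone, 0 miRNAs passed against 3 d, 1 against 7 d and 0 against 28 d. When 1 of the 24 libraries was left out, the numbers ranged from 0 to 38, 1 to 34 and 0 to 86, with the highest values without high dose 3-d rat 24 (38 and 34) and low dose 28-d rat 29 (86).

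The other lists had 2 to 9 tested arms and held 0 to 2 DEMs each, beside 27.6% DEMs and 20.6% lower DEMs over all 301. Lists this short cannot be set apart from that share. The lists of miR-7 with miR-190, miR-466, miR-200, miR-181 and the miR-322 cluster, described above, are also short, with 5 to 8 tested arms. No list was tested against the share over all 301. The lists of miR-199 with miR-214 (3 tested arms), miR-221 with miR-222 (3), miR-23, miR-27 and miR-24 (9), miR-10 (3), miR-130 with miR-301 (3), miR-22 (2) and miR-455 (2) held 0. Their highest members, miR-199a-3p, miR-221-3p, miR-27b-3p, miR-10a-5p, miR-130a-3p, miR-22-3p and miR-455-5p, had log2 fold changes of -0.46, -0.48, -0.26, -0.28, 0.072, -0.14 and -0.13. Those of miR-22-3p and miR-455-5p were above 0 under the 3 other scalings and those of miR-27b-3p and miR-10a-5p under library size alone. Lists with 1 lower DEM were miR-183, miR-96 and miR-182 (miR-182, -0.60), miR-26 with miR-101 (miR-101a-3p, -0.73), miR-193 with miR-365 (miR-193a-5p, -1.05), miR-132 with miR-212 (miR-132-3p), miR-21 (miR-21-5p) and miR-148 with miR-152 (miR-148a-5p, -0.86). The list of miR-99, miR-100 and miR-125 had 2 (miR-125b-2-3p, -0.84, and miR-99a-3p, -0.88). Of 9 tested arms of miR-15, miR-16, miR-195, miR-497 and their relative miR-322, 1 was higher (miR-322-5p), and of 4 tested arms of miR-143 and miR-145, which are rich in smooth muscle, 1 was higher (miR-145-5p).

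Marker miRNAs of the cell types that liver tissue can hold were compared in the same 6 rats. Of 4 tested red blood cell arms 0 were DEMs (median log2 fold change 0.41), and their summed level was 4171 to 5302 RPM at low and 2767 to 6710 RPM at high dose. Of 7 leukocyte arms 1 was a lower DEM, miR-146b-5p, and 0 were higher (median 0.29, and 0.65 under library size alone). Their sums were 3403 to 3924 RPM at low and 4269 to 6252 RPM at high dose. In upper quartile normalized RPM, added after the data had been seen, the groups overlapped, at 4030 to 4256 and 3702 to 5711. Both tested endothelial arms were no DEMs (median 0.11), and their sums were 17441 to 20150 RPM at low and 21243 to 28370 RPM at high dose. These also overlapped once normalized (20650 to 21855 and 18417 to 25915). Of 7 stellate and smooth muscle arms 1 was higher, miR-145-5p (median -0.20, and 0.16 under library size alone), with sums of 43053 to 47299 and 45270 to 48165 RPM that overlapped. The normalized sums were all lower at high dose (47927 to 56002 and 39248 to 43929). Of 11 arms of bile duct and other epithelium 2 were higher, miR-429 and miR-200b-3p, and 2 lower, miR-203a-3p and miR-203b-3p (median -0.49), with sums of 3792 to 4357 and 3621 to 4684 RPM that overlapped. Their normalized sums were all lower at high dose (4112 to 5201 and 3307 to 4061). The 2 tested muscle arms, miR-133a-3p and miR-499-5p, were no DEMs, with sums of 22.8 to 29.7 and 20.1 to 33.8 RPM, nor was the 1 tested pancreas arm, miR-375-3p, with sums of 256 to 334 and 297 to 516 RPM. Of 4 nervous tissue arms 1 was higher (miR-128-3p) and 2 lower (miR-9a-5p and miR-128-1-5p), with a median of -0.76. Their sums were 90.05 to 115 and 197 to 210.0 RPM, and the high dose sums were all above the low dose ones also once normalized (102 to 137 and 180.3 to 186). These sums were mostly miR-128-3p (mean 134 RPM over the 6 rats). miR-128-1-5p, miR-9a-5p and miR-218a-5p (means 3.13, 5.94 and 8.69 RPM) had log2 fold changes of -0.99, -0.94 and -0.58. The hepatocyte sums were all lower at high dose under both scalings (normalized 337816 to 370374 at low and 197408 to 223395 at high dose). Those of red blood cells, muscle and pancreas overlapped under both. Of the listed arms with a read in the study, 4 of 9 muscle, 2 of 11 nervous tissue and 2 of 6 pancreas arms had 0 reads in all 6 libraries. miR-206, miR-208a, miR-208b, miR-124 and miR-216b also had 0 reads in all 6. Other members of these lists had reads, so these zeros do not show that such cells were absent. The part of such cells in the differences was not tested.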

How the data were processed

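miRNA-seq of rat liver (TruSeq small RNA libraries of total RNA, 48 pooled libraries, HiSeq2000) was used, with 3 rats per group. The authors deposited raw read counts per mature miRNA and precursor. Per their methods, adaptors were trimmed, reads of 18 to 25 bases were kept, and miRDeep2 counted reads against miRBase release 21. The submitters' processing notes name FastQC and the genome build rn5. The table held 847 rows for 764 mature miRNAs, 71 of them listed for several precursors, and the precursor row with the most reads was used. RPM was computed from the counts.

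High and low dose were compared with edgeR 4.0.16 (glmQLFit and glmQLFTest, two-sided, upper quartile normalization, R 4.3.3), with BH adjustment over all tested miRNAs. A normalized RPM is the count divided by the effective library size of the 14-d libraries. Arm ratios were tested with limma 3.58.1 on log2 of the ratio, with 0.5 added to each count, after the data had been seen. Distances of group means were taken on log2 of the normalized RPM plus 0.1. DESeq2 1.42.0 gave size factors and an alternative test, and Python 3.11.15 (pandas 2.3.3, matplotlib 3.10.9) the figures. The scripts were tested on simulated data.

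The members, lists and tests were chosen with earlier results of these data known. Named miRNAs were those the study names, the 10 higher and 10 lower DEMs with the smallest p-values among those without overlap, the 3 with the highest mean, and the DEMs of each list or, where it had none, its highest member. Any other miRNA named was chosen after its values were seen. The rats of a group are separate animals, and running numbers do not pair them. Depth limits the precision at low levels. The floors and the interval of the miR-34a-3p ratio cover counting error only, and the interval of miR-455-3p came from the edgeR fit. Sequences and gene spans came from RefSeq (GRCr8), which is another build than that of the counts, and no coordinate was converted.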

Additional observations from a re-analysis of the deposited data

Results flagged for a closer look

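The high minus low dose difference at 14-d differed from that at another time point, with an adjusted p below 0.05 in edgeR's quasi-likelihood F-test on 24 libraries with upper quartile scaling, for 16 pairs of a miRNA and a time point. Each value is the 14-d difference minus the other difference on the log2 scale. Against 3-d it was -2.88 for miR-132-3p. Against 7-d it was -2.76 for miR-6329, -1.02 for miR-186-5p, -3.54 for miR-34a-5p, -2.69 for miR-132-3p, -1.55 for miR-185-5p, -1.96 for miR-466b-5p and -0.79 for miR-199a-3p. Against 28-d it was -0.81 for miR-192-5p, -1.35 for miR-181a-1-3p, -1.04 for let-7b-3p, -1.09 for miR-181c-5p, -0.68 for miR-27b-3p, -1.04 for miR-181a-5p, -0.85 for miR-28-5p and -2.21 for miR-127-3p. All 16 values were negative with upper quartile scaling, and miR-6329 against 7-d was the 1 pair that also passed with TMM, DESeq2's size factors and library size alone. No cause was tested.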

How the results depend on the processing

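The scaling, the filter on low counts and single libraries moved the counts most, and the cause was not tested. The 83 DEMs between high and low dose became 51 when 5 RPM were asked in each of the 6 libraries, with 28 lower. The 21 higher DEMs became 33 with TMM, 50 with library size alone and 56 without a filter. The 62 lower DEMs became 34 with TMM, 35 with DESeq2's size factors, 19 with library size alone, 34 with 5 RPM in 3 of the 6 libraries, 32 with DESeq2's Wald test and 40 with precursors summed. The 72 DEMs with an adjusted p below 0.05 became 47 without a filter and 44 with 5 RPM in each library. Leaving out 1 library gave 71 to 89 DEMs, 16 to 26 higher and 49 to 68 lower, and 35 to 49 under all 4 scalings. Without a filter the DEMs at 3-d numbered 85 and at 28-d 59. Leaving out 1 library gave 35 (without low dose rat 44) to 86 (without high dose rat 24) at 3-d, 36 (low dose rat 48) to 86 (high dose rat 27) at 7-d and 21 (high dose rat 21) to 48 at 28-d. The numbers of miRNAs whose difference changed between time points were the least stable. Against 3-d they were 0 with TMM, 0 with library size alone and 8 without a filter, and 0 to 38 without 1 library (38 without high dose 3-d rat 24). Against 7-d they were 1 and 1 with these scalings and 1 to 34 (34 without the same rat). Against 28-d they were 0, 0 and 0 without a filter, and 0 to 86 (86 without low dose 28-d rat 29). Of 1464 recomputed values of 78 named miRNAs, 1201 kept direction and call, 222 lost the call, 7 gained it and 34 changed sign. Those with a changed sign were uncalled. miR-455-3p, miR-22-3p and miR-455-5p were 0.086, 0.062 and 0.072 with TMM, 0.075, 0.044 and 0.054 with DESeq2's size factors, 0.24, 0.22 and 0.23 with library size alone, 0.11, 0.070 and 0.070 without a filter, 0.092, 0.056 and 0.078 with 5 RPM in each library, 0.055, 0.022 and 0.041 with 5 RPM in 3 libraries, 0.075, 0.044 and 0.053 with DESeq2's Wald test and 0.028, 0.0050 and 0.019 with precursors summed. With library size alone miR-27b-3p was 0.10, miR-10a-5p 0.080, miR-486 0.017 and miR-499-5p 0.11. Without 1 library, miR-455-3p ranged from -0.27 (low dose rat 41) to 0.18 (low dose rat 42), miR-148a-3p from -0.061 (low dose rat 41) to 0.13 (low dose rat 42), miR-375-3p from -0.19 (high dose rat 7) to 0.19 (high dose rat 9), with -0.10 without low dose rat 41, and miR-126a-5p from -0.16 (high dose rat 9) to 0.14 (high dose rat 7), with -0.02 without low dose rat 42. Low levels, with 1 high dose library of 4829217 counts, limit the comparison. No paired analysis was possible because the running numbers of the rats are unique to each rat.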
